A study of Mus musculus with 2 samples.

Results

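The genes described here are 9 adhesion genes of blood cells, the integrin subunits Itgam, Itgal, Itgax, Itgb2, Itgb2l, Itga4 and Itgb1 and the adhesion molecules Selplg and Cd44. They were taken by symbol from the gene list of a single-cell RNA sequencing data set of mouse bone marrow, and all 9 were found among the 32285 genes listed. Their levels were compared between classes of marrow cells, along the stages of neutrophil maturation, and between 1 control (Ctrl) library and 1 library labelled Map4k4-cKO (cKO).

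Integrins are pairs of an alpha and a beta chain that hold leukocytes to other cells and to matrix once signals from inside the cell have opened them. Itgb2 (CD18) is the beta chain that pairs with Itgal (CD11a) to give LFA-1, with Itgam (CD11b) to give Mac-1 and with Itgax (CD11c) to give the complement receptor of dendritic cells, and Itga4 with Itgb1 makes VLA-4, which binds VCAM-1 and fibronectin in the marrow. Selplg encodes PSGL-1, the sialomucin on which leukocytes roll over selectins, and CD44 binds hyaluronan and can also carry selectin ligands. In neutrophils VLA-4 is known for retention of progenitors in the marrow, and PSGL-1 and the beta 2 integrins for the rolling, arrest and crawling that lead out of the blood vessel.

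Both groups were C57BL/6 littermates of 13 to 14 weeks that carried Mx1-Cre, an interferon-inducible Cre that acts in stem cells, in all blood lineages made from them and in some other tissues, and not in neutrophils alone. The cKO mice were Mx1-Cre Map4k4 f/f and had their floxed alleles deleted by poly I:C weeks before the experiment, and the methods write the controls as Mx1-Cre Map4k4-/-. Whether the controls received poly I:C and how many mice went into a library were not stated. In both groups c-Kit+ cells drawn with magnetic beads were mixed at 2 parts to 3 parts with marrow cells after lysis of red cells, so shares of cell types reflect the mixture as well as the marrow.

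The Ctrl library held 10220 barcodes with 71527701 UMIs (unique molecular identifiers, the count of captured RNA molecules) and the cKO library 6872 barcodes with 64393950 UMIs, of which 9965 and 6718 cells passed the filters. Of the barcodes, 3010 occurred in both files, and cells of the 2 libraries with the same barcode were no more alike (median r = 0.498) than cells with neighbouring barcodes (0.499). Map4k4, the targeted gene, stood at 72.6 CPM (5176 UMIs; CPM is UMIs scaled to a total of 1000000) in Ctrl and 64.3 CPM (4132 UMIs) in the library labelled cKO. A loss of Map4k4 RNA was thus not seen in the library labelled cKO. Where the deleted part lies relative to the 3′ tags was not given in the sources used here, so these levels do not settle the label, and cKO stands below for the library labelled so. By RT-PCR the study itself reported that stem and progenitor cells lost the Map4k4 transcript once poly I:C was given. With 1 library per group there were no replicates, the intervals given are exact and cover counting error only, and genotype and library preparation cannot be told apart.

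Cells were clustered with the 9 genes and the other integrin and selectin genes kept out of the genes used for clustering, and clusters were named from marker lists that hold none of the 9. The neutrophil stages were the ProNeu-like cells (Elane, Mpo and Prtn3), the cycling PreNeu-like cells (Fcnb, Camp and cell cycle genes), the postmitotic imNeu-like cells (Ltf, Ngp and Lcn2) and the mNeu-like cells (Retnlg, Mmp8 and Cxcr2). Of 17 named classes, 8 had at least 50 cells in each library, and in 15 of the 17 the class's own markers summed to their highest level in that class in both libraries. The exceptions were ProMon-like cells, which ranked 3rd in Ctrl and 2nd in cKO for their own markers, and MEP-like cells (megakaryocyte and erythroid progenitors), which ranked 2nd in both. Clusters were named by these same markers, so this ranking is not a separate check of the names. The 944 Ctrl cells and 1731 cKO cells of 2 clusters led by mitochondrial and nuclear RNA had no name and stayed out of the classes.

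RefSeq promoter sequences (GRCm38.p6) were at hand for 6 of the 9 genes, Itgam, Itgb2l, Itgax, Itga4, Itgb1 and Cd44. The 250 bases before the RefSeq start are shown for 4 of them, a pair whose RNA was low in progenitors and high in neutrophils (Itgam and Itgb2l) and a pair with the opposite order (Itga4 and Itgb1). Capitals mark GAGGAA and its reverse complement TTCCTC, the core bound by PU.1, a master regulator of myeloid genes.
Itgam: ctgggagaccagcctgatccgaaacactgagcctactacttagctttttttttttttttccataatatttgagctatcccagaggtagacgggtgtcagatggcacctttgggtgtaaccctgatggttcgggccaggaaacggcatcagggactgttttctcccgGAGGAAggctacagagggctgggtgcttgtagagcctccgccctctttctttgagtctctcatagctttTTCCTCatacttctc
Itgb2l: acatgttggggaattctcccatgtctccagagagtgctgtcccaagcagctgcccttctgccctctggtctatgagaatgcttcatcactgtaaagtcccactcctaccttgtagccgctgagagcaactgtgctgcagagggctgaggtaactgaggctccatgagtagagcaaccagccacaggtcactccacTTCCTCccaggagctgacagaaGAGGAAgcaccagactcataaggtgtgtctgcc
Itga4: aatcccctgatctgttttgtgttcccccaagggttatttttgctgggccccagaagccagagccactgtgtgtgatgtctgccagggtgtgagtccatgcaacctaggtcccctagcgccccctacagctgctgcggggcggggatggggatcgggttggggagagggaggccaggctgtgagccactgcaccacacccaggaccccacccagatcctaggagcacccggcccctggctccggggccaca
Itgb1: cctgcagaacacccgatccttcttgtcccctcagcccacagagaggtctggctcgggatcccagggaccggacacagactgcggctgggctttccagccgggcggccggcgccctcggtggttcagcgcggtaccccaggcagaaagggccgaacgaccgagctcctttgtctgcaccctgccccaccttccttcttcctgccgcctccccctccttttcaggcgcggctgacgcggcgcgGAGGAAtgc

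These windows lie at chr7:128062390-128062639 (plus strand, Itgam), chr16:96443615-96443864 (minus strand, Itgb2l), chr2:79255176-79255425 (plus strand, Itga4) and chr8:128685404-128685653 (plus strand, Itgb1), all printed 5′ to 3′ along the gene. The RefSeq start of Itgb2l lies inside the gene interval that GENCODE gives, so its window overlaps that interval by its last bases. The Itgam window held the PU.1 core 84 bases before the start on the gene's strand and 15 bases before it on the other strand, and the Itgb2l window held it 55 and 33 bases before the start. The Itgb1 window held it 9 bases before the start and the Itga4 window did not hold it. Of the 6 windows 4 held these letters (those of Itgam, Itgb2l, Itgb1 and Cd44), against 23.3% of 32851 promoter windows of the same length. An Sp1 box (GGGCGG) was present in the windows of Itgam, Itga4 and Itgb1 against 32.7% of all windows, and a RUNX core (TGNGGT) in those of Itgb2l, Itga4 and Itgb1 against 40.1%. The C/EBP letters TTGCNNAA (9.56% of all windows) and the STAT letters TTCNNNGAA (7.02%) were in none of the 6. All 5 were searched on both strands, and no matches within the 6 windows shared bases. GC content was 64.0% in the Itga4 window and 68.0% in the Itgb1 window, against 49.6% for Itgam, 54.4% for Itgb2l and a median of 52.4% over all windows. A match of letters is a description of the window and not a site of binding.

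In the GENCODE annotation of GRCm38 the alpha chains Itgal, Itgam and Itgax of the CD18 integrins lie on 1 chromosome, Itgal at chr7:127296260-127335138, Itgam at chr7:128062640-128118491 and Itgax at chr7:128129547-128150657, all on the plus strand. Their beta chain Itgb2 lies at chr10:77530252-77565708 (plus strand) and its paralogue Itgb2l, a CD18-like beta chain of mouse granulocytes, at chr16:96422288-96443619 (minus strand). Itga4 lies at chr2:79255426-79333123 (plus strand), where Cerkl, also counted, overlaps it on the other strand, and Itgb1 at chr8:128685654-128733200 (plus strand). Selplg lies at chr5:113818536-113832644 and Cd44 at chr2:102811141-102901665, both on the minus strand. All 9 are protein-coding genes. How reads shared by Itgb2 and Itgb2l or by Itga4 and Cerkl were assigned was not given in the sources used here.

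Most UMIs of Itgb2l, Itgam and Itgb2 came from the neutrophil lineage. The 4 neutrophil stages held 92.3% of all Itgb2l UMIs in Ctrl and 96.1% in cKO, 83.6% and 90.2% of Itgam, and 82.5% and 90.5% of Itgb2. They held fewer of the UMIs of Cd44 (66.9% and 82.9%), Itgal (60.4% and 80.4%), Selplg (46.8% and 74.1%) and the sparse Itgax (44.4% of 268 and 52.9% of 119 UMIs). For the VLA-4 chains the shares were lowest, 21.3% and 37.7% for Itga4 and 25.6% and 37.9% for Itgb1. These shares are of UMIs and follow the number and depth of the cells of each class in each library.

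**Figure D1:**
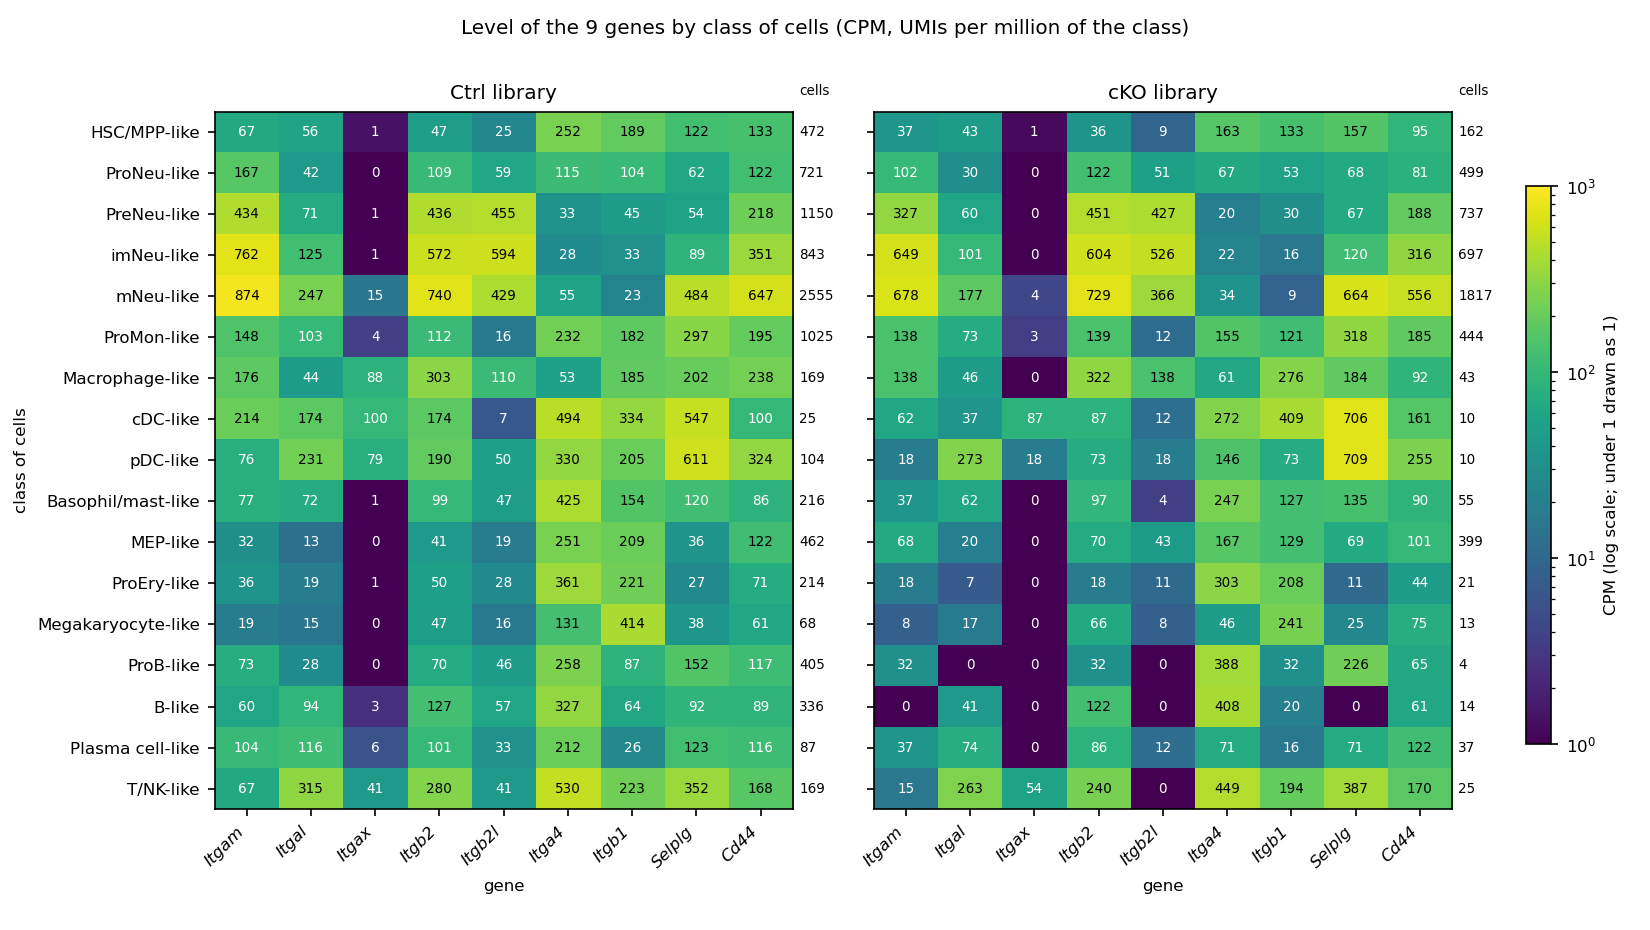
Level of each of the 9 genes (columns) in each class of cells (rows) in the Ctrl library (left) and the cKO library (right), as CPM of the class on a log colour scale with the value printed in each field and the number of cells beside each row. Itgam, Itgb2 and Itgb2l reach their highest levels in the PreNeu-like to mNeu-like rows, Itga4 in T/NK-like, cDC-like, basophil and erythroid rows, and Selplg in mNeu-like, cDC-like and pDC-like rows; rows with under 50 cells in a library rest on few UMIs.

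By CPM, Itgam, the alpha chain of Mac-1, was higher at each neutrophil stage than at the one before. In Ctrl it stood at 67.1 CPM in HSC/MPP-like cells (stem cells and multipotent progenitors), then 166.9 (ProNeu-like), 434.0 (PreNeu-like), 761.5 (imNeu-like) and 874.5 CPM (mNeu-like). In cKO the values were 37.4, 102.5, 326.9, 648.6 and 678.0 CPM. Both libraries therefore kept the same order of stages, with the step from imNeu-like to mNeu-like cells the smallest (1.15-fold in Ctrl and 1.05-fold in cKO). From ProNeu-like to mNeu-like cells Itgam was 5.24-fold higher in Ctrl and 6.62-fold higher in cKO.

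Itgb2 by CPM followed the same course at nearly the same level in both libraries. Its UMIs per cell were highest in PreNeu-like cells, 4.61 in Ctrl and 8.28 in cKO, against 2.02 and 5.10 in mNeu-like cells. By CPM Itgb2 went as follows. It stood at 46.6, 109.3, 436.3, 571.5 and 739.8 CPM from HSC/MPP-like to mNeu-like cells in Ctrl and at 35.8, 122.3, 451.0, 604.0 and 728.8 CPM in cKO. Its largest step lay between ProNeu-like and PreNeu-like cells, 3.99-fold in Ctrl and 3.69-fold in cKO. Across the points of 8 classes in 2 libraries, which share library and depth, the log2 level of Itgb2 correlated with that of Itgam (Pearson r = 0.96, 16 points).

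Itgb2l had a different shape, highest in the middle of the lineage. Its UMIs per cell were highest in PreNeu-like cells, 4.81 in Ctrl and 7.83 in cKO, against 3.22 and 6.14 in imNeu-like cells. By CPM Itgb2l peaked in imNeu-like cells. It was at 25.0, 59.4, 455.4, 594.0 and 428.8 CPM along the stages in Ctrl and at 9.44, 50.9, 426.6, 525.7 and 365.5 CPM in cKO. The step into PreNeu-like cells was the largest of the 8 members tested there, 7.67-fold in Ctrl and 8.39-fold in cKO, and the level in mNeu-like cells was 1.39-fold and 1.44-fold below that in imNeu-like cells. In B-like cells, a lymphoid class that should lack it, 8.93% of Ctrl cells (median 2077 UMIs) had an Itgb2l UMI, against 49.5% of mNeu-like Ctrl cells (median 2362 UMIs). With each cell thinned to 1000 UMIs an Itgb2l UMI was present in 4.95% of 323 B-like Ctrl cells, which is used below as a reference share. The thinned shares were at or near it in HSC/MPP-like cells (1.91% of 472 Ctrl and 0% of 162 cKO cells, with an exact 95% interval up to 2.25%) and in ProNeu-like cells (5.13% of 721 and 4.81% of 499), and far above it from PreNeu-like cells on (26.5 to 44.2%). Unthinned, 21.2% of HSC/MPP-like and 40.9% of ProNeu-like Ctrl cells had an Itgb2l UMI, at medians of 10764.5 and 17396 UMIs. Whether a share taken from shallow cells is a background for deeper ones was not tested.

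By CPM, Itgal, the alpha chain of LFA-1, dipped at the ProNeu-like stage and was highest at the end. In UMIs per cell it went from 0.756 in ProNeu-like to 0.673 in mNeu-like cells of Ctrl and from 0.738 to 1.24 in cKO. Its levels were 56.3, 42.2, 71.0, 124.8 and 247.0 CPM along the stages in Ctrl and 42.9, 30.4, 60.3, 101.0 and 176.6 CPM in cKO. Outside the lineage it was higher in T/NK-like cells, 315.2 CPM (161 UMIs) in Ctrl and 263.1 CPM (34 UMIs, 25 cells) in cKO. Of the UMIs of the 4 alpha chains that pair with Itgb2 (Itgal, Itgam, Itgax and Itgad), Itgal made up 14.1% in imNeu-like Ctrl cells and 73.5% in T/NK-like Ctrl cells, while Itgam made up 85.9% and 15.5%. These are shares of captured RNA and not of the chains on the cell. In Macrophage-like cells Itgad, the CD11d chain, held 47.0% of these UMIs in Ctrl (62 UMIs) and 62.5% in cKO (20 UMIs). The Itgam share of T/NK-like cells rested on 34 UMIs in Ctrl, and in cKO it was 4.65% (2 of 43 UMIs). On thinned cells an Itgam UMI was present in 4.76% of 147 T/NK-like and 4.33% of 323 B-like Ctrl cells.

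Itgax was close to absent before the last stage. It had 3 to 8 UMIs per class in the HSC/MPP-like, ProNeu-like, PreNeu-like and imNeu-like cells of Ctrl and 0 to 4 in those of cKO, against 104 UMIs (14.9 CPM) in Ctrl mNeu-like cells and 55 UMIs (4.33 CPM) in cKO mNeu-like cells. An Itgax UMI was present in 3.56% of mNeu-like cells in Ctrl and 2.81% in cKO, against 0.595% of B-like cells in Ctrl. In ProNeu-like cKO cells it was at 0 UMIs, which allows a level of up to 0.248 CPM at 3 counts.

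Selplg did not climb step by step. It was at 122.2, 62.4, 54.3, 88.6 and 484.0 CPM from HSC/MPP-like to mNeu-like cells in Ctrl and at 156.9, 68.3, 67.4, 119.5 and 664.1 CPM in cKO. The ProNeu-like and PreNeu-like stages were lowest in both libraries and the last step was by far the largest, 5.47-fold in Ctrl and 5.56-fold in cKO. The ProMon-like cells (monocyte progenitors and monocytes) came next after mNeu-like cells among the 8 classes, with 296.9 CPM in Ctrl and 318.1 CPM in cKO. In the small pDC-like class it was at 611.0 CPM in Ctrl (209 UMIs) and 709.3 CPM in cKO (39 UMIs).

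Cd44 was widely present, and its level in Ctrl differed least among the 8 classes, 7.52-fold from the lowest to the highest. It stood at 133.3, 122.0, 217.9, 350.9 and 647.2 CPM along the stages in Ctrl and 95.2, 81.4, 188.0, 315.8 and 555.9 CPM in cKO. Among these 8 classes its lowest levels were 86.1 CPM in Ctrl Basophil/mast-like cells and 81.4 CPM in cKO ProNeu-like cells.

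The VLA-4 chains ran the other way. Itga4 was at 252.0, 114.7, 33.4, 28.4 and 54.9 CPM from HSC/MPP-like to mNeu-like cells in Ctrl and at 163.2, 66.8, 19.7, 21.9 and 33.7 CPM in cKO. Itgb1 was at 188.9, 104.1, 44.9, 32.6 and 22.8 CPM in Ctrl and at 132.9, 53.0, 30.3, 15.7 and 8.89 CPM in cKO. Itgb1 was thus lower at every stage than at the one before in both libraries. By CPM Itga4 was instead higher in mNeu-like than in imNeu-like cells (1.93-fold in Ctrl and 1.54-fold in cKO). Its UMIs per cell were lower there, 0.150 against 0.154 in Ctrl and 0.236 against 0.255 in cKO. Thinned shares went with the CPM, 5.86% against 3.74% in Ctrl and 3.51% against 1.60% in cKO. Outside the neutrophils Itga4 was highest in T/NK-like cells (530.5 CPM in Ctrl, 448.9 CPM in cKO) and Itgb1 in Ctrl Megakaryocyte-like cells (414.4 CPM, 462 UMIs). The log2 levels of Itga4 and Itgb1 correlated over the same 16 points (r = 0.92), and that of Itgb1 was opposed to that of Itgb2 (r = -0.93).

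**Figure D2:**
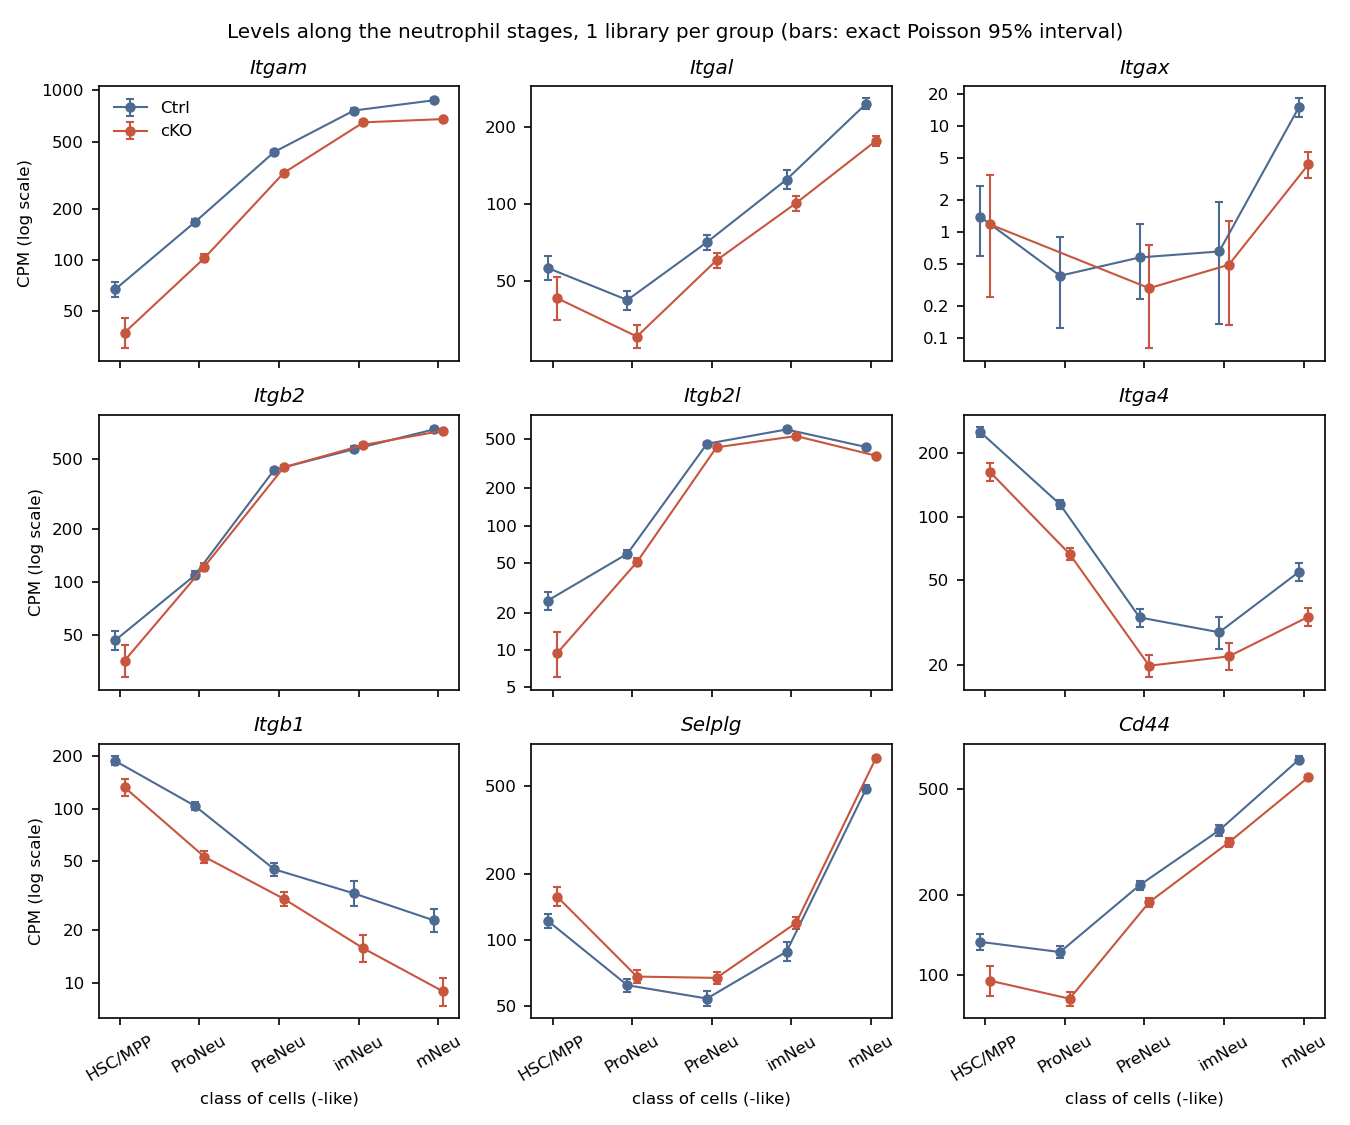
CPM (log scale) of each of the 9 genes from HSC/MPP-like cells to mNeu-like cells in Ctrl (blue) and cKO (red), 1 library each, with exact Poisson 95% intervals as bars. Itgam, Itgb2, Itgal and Cd44 end at their highest level, Itgb2l peaks in imNeu-like cells, Itga4 and Itgb1 start at their highest level, and Selplg and Itgax stand out in the last stage; a library at 0 UMIs has no point.

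A gene was called different between neighbouring stages when its CPM differed at least 2-fold the same way in both libraries, among genes with at least 20 UMIs over the 2 stages. From HSC/MPP-like to ProNeu-like cells 4 of 8 members tested were called, where 22.7% of all genes were (4.73% higher, 17.9% lower). Itgam, Itgb2 and Itgb2l were called higher and Itga4 lower. On thinned cells Itgam in HSC/MPP-like cells (5.93% in Ctrl, 1.85% in cKO) was near the share of B-like Ctrl cells (4.33%). Itgb2l was at or near its B-like share in both stages. Unthinned, 47.0% of HSC/MPP-like Ctrl cells had an Itgam UMI, against 10.7% of B-like Ctrl cells. For Itgb2l the unthinned Ctrl shares were 21.2% and 40.9%, against 8.93%. Both stages were deeper than B-like cells, and their background was not tested. From ProNeu-like to PreNeu-like cells the same 4 genes were called in the same directions, where 36.4% of all genes were called (6.14% higher, 30.3% lower). None of 8 was called from PreNeu-like to imNeu-like cells, where 19.0% of all genes were, and Itgam missed the mark by little (1.76-fold in Ctrl and 1.98-fold in cKO). From imNeu-like to mNeu-like cells 2 of 9 were called, Selplg and Itgax, both higher, where 13.4% of all genes were called (9.09% higher). Itgax reached 20 UMIs only through mNeu-like cells (104 and 55 UMIs, against 3 and 4 in imNeu-like cells). Once tested, its call as higher here and from ProNeu-like cells was thus all but fixed. Between the ends of the lineage, from ProNeu-like to mNeu-like cells, 7 of 9 were called higher by CPM, against 15.8% of all genes, and Itgb1 lower, against 45.6%. In that comparison Itga4 was 2.09-fold lower in Ctrl and 1.98-fold lower in cKO and so was not called. Counted as UMIs per cell, Itgam, Itgal and Cd44 were lower in mNeu-like than in ProNeu-like cells of Ctrl. The other genes called higher were higher per cell too, and in cKO all of them were, Itgam, Itgal and Cd44 included.

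With the 8 classes of at least 50 cells ranked by level, the CPM of the 2 libraries overlapped between neighbours in 2 of 7 pairs for Itgal and Itgb2, 3 for Selplg, 4 for Itgam, Itgb2l, Itga4, Itgax and Cd44, and 5 for Itgb1. For Itgam the mNeu-like and imNeu-like values overlapped across libraries (874.5 and 678.0 against 761.5 and 648.6 CPM), though within each library the mNeu-like value was higher. For Itga4 the first 4 classes, Basophil/mast-like, MEP-like, HSC/MPP-like and ProMon-like cells, overlapped one after the other. For Itgb1 so did MEP-like, HSC/MPP-like, ProMon-like and Basophil/mast-like cells.

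The mNeu-like class was made of 3 clusters, and the 9 genes differed among them. The first was led by Mmp8 and Mmp9, genes of gelatinase granules, and held 52.9% of mNeu-like cells in Ctrl and 38.9% in cKO. The second was led by Retnlg and stefin genes (37.1% and 31.4%) and the third by Il1b and Wfdc17 (9.98% and 29.7%). The 3 clusters thus held different shares of the class in the 2 libraries, and values for the whole class mix that difference with differences within a cluster.

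Itgb2l differed most across these clusters among the genes above 100 CPM, with 600.3, 228.3 and 66.2 CPM in the Mmp8, Retnlg and Il1b clusters of Ctrl and 537.6, 333.3 and 97.6 CPM in those of cKO. Selplg had the opposite order, 291.0, 676.4 and 1026 CPM in Ctrl and 325.0, 716.5 and 1206 CPM in cKO. Itga4 stood at 31.2, 65.1 and 174.9 CPM in Ctrl and 15.4, 17.7 and 86.2 CPM in cKO. Both Selplg and Itga4 thus had their highest mNeu-like level in the Il1b cluster, where Itgb2l was lowest.

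Itgam had 1032, 688.6 and 545.0 CPM in the same clusters of Ctrl and 829.8, 634.1 and 460.6 CPM in those of cKO, so Mac-1 alpha RNA per UMI was highest in the Mmp8 cluster. Itgal went the other way from Itgam, with 191.0, 301.0 and 410.9 CPM in Ctrl and 130.8, 186.2 and 246.8 CPM in cKO. Cd44 had 539.9, 760.9 and 920.3 CPM in Ctrl and 450.7, 593.7 and 697.2 CPM in cKO. The shared beta chain Itgb2 varied least, 761.4, 738.5 and 597.7 CPM in Ctrl and 765.7, 745.7 and 641.8 CPM in cKO.

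From the Mmp8 to the Il1b cluster, 4 of the 9 genes differed at least 2-fold in both libraries, where 12.7% of all genes did (7.47% higher and 5.24% lower in the Il1b cluster). Itgb2l was lower by 9.07-fold in Ctrl and 5.51-fold in cKO. Selplg was higher by 3.52-fold and 3.71-fold and Itga4 by 5.61-fold and 5.60-fold. Itgax was higher by 13.6-fold in both, from 15 and 5 UMIs in the Mmp8 cluster. Itgal, at 2.15-fold and 1.89-fold, was past 2-fold in Ctrl and not in cKO.

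**Figure D3:**
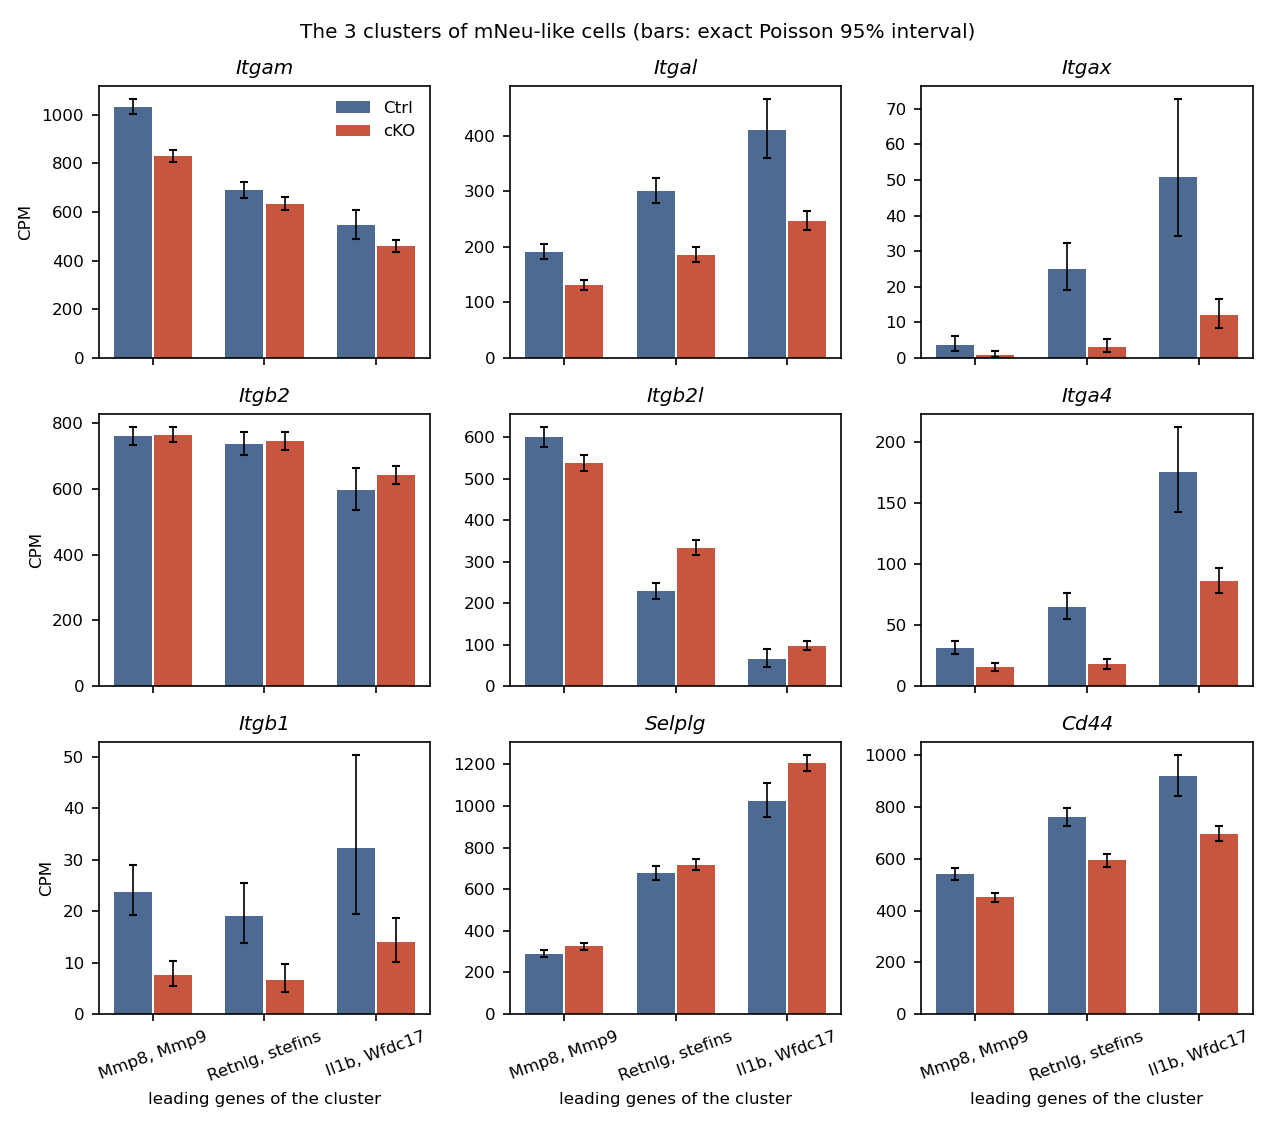
CPM of each of the 9 genes in the 3 clusters of mNeu-like cells, named by their leading genes, in Ctrl (blue) and cKO (red), with exact Poisson 95% intervals as bars and a separate axis from 0 in each panel. Itgb2l and Itgam decline from the Mmp8 to the Il1b cluster, Selplg, Itga4, Itgal and Cd44 increase, and Itgb2 stays between 597.7 and 765.7 CPM; Itga4, Itgb1 and Itgax are lower in cKO in each of the 3 clusters.

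The libraries labelled Ctrl and cKO were compared at each stage. In the neutrophil stages cKO cells were deeper than Ctrl cells, by a median of 6507 against 2362 UMIs in mNeu-like cells, 11587 against 5143 in imNeu-like and 18849 against 10051 in PreNeu-like cells. UMIs per cell and CPM could therefore point opposite ways. In mNeu-like cells Itgam had 2.38 UMIs per cell in Ctrl and 4.75 in cKO, while its CPM was 874.5 and 678.0. When each cell was thinned to 1000 UMIs, 52.9% (50.9 to 55.0%) of 2305 Ctrl cells and 45.4% (43.0 to 47.8%) of 1739 cKO cells had an Itgam UMI, the same direction as the CPM, beside 4.33% of 323 B-like Ctrl cells, and the unthinned shares were 75.7% and 89.5%. Selplg was higher in cKO on each scale, with 1.32 and 4.65 UMIs per cell, 484.0 and 664.1 CPM, and 41.2% (39.2 to 43.3%) and 48.7% (46.3 to 51.0%) of thinned cells.

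The all-gene median of the log2 ratio of cKO over Ctrl was below 0 in every class of the 8, from -0.55 in mNeu-like to -0.11 in Basophil/mast-like cells. The median was -0.39 for imNeu-like cells, -0.33 for PreNeu-like, -0.32 for ProNeu-like, -0.21 for ProMon-like, -0.13 for MEP-like and -0.12 for HSC/MPP-like cells. A ratio equal to that median marks a gene that moved with the bulk of genes. Calls were a CPM at least 2-fold apart among genes with at least 20 UMIs, and 8 such calls were made over the 9 genes and 8 classes.

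Selplg was higher in cKO in 8 of 8 classes, from 0.10 in ProMon-like to 0.95 in MEP-like cells on the log2 scale, and it lay above the all-gene median in all 8. Its 95% counting interval lay above 0 in 6 of them. In mNeu-like cells the ratio was 0.46 (0.40 to 0.51). Within the 3 mNeu-like clusters it was smaller, 0.16 (0.05 to 0.27), 0.08 (-0.01 to 0.17) and 0.23 (0.11 to 0.36), beside the larger share of the Selplg-rich Il1b cluster in cKO. Selplg was called at 2-fold in no class. In MEP-like cells the ratio moved with neutrophil RNA, given below. It was below 0 in 1 of the 8 classes when libraries were not integrated (-0.20), with at most 10% mitochondrial UMIs (-0.03) and as a mean of per-cell proportions (-0.16).

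Itgb1 was lower in cKO in 8 of 8 classes, from -1.36 in mNeu-like to -0.27 in Basophil/mast-like cells, and below the all-gene median in all 8. It was called lower in imNeu-like cells (149 UMIs in Ctrl and 128 in cKO, 32.6 against 15.7 CPM, log2 ratio -1.05, interval -1.40 to -0.70), where 12.8% of all genes were called lower, but this call was absent under 6 of 13 alternative settings (-0.99 to -0.61). It was also called lower in mNeu-like cells (159 and 113 UMIs, 22.8 against 8.89 CPM, -1.36, -1.72 to -1.004), where 23.2% were. In ProNeu-like cells it was at 104.1 against 53.0 CPM, a ratio of -0.97, just inside the 2-fold mark. In UMIs per cell Itgb1 was near level, at 0.177 in Ctrl and 0.184 in cKO imNeu-like cells and 0.0622 in mNeu-like cells of both. On thinned cells its shares were 2.7% (1.7 to 4.0%) and 2.2% (1.2 to 3.6%) in imNeu-like cells. In mNeu-like cells they were 1.7% (1.2 to 2.4%) and 1.0% (0.6 to 1.6%). These intervals overlapped between the libraries. The share in B-like Ctrl cells was 5.9% at 63.7 CPM, a level near those of Itgb2l (57.3 CPM) and Itgam (59.9 CPM) in that class. The imNeu-like and mNeu-like shares of Itgb1 lay below it, and what part of them is background was not tested.

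By CPM, Itga4, the partner of Itgb1, was lower in cKO in 8 of 8 classes, from -0.78 in Basophil/mast-like and ProNeu-like cells to -0.38 in imNeu-like cells, and below the all-gene median in 7. In UMIs per cell it was higher in cKO in PreNeu-like (0.353 and 0.362), imNeu-like (0.154 and 0.255), mNeu-like (0.150 and 0.236) and ProMon-like cells (2.70 and 2.91). It was lower per cell in the other classes. On thinned mNeu-like cells its shares were 5.86% in Ctrl and 3.51% in cKO. With size factors by the median of ratios 1 class turned to 0.07. In the whole mNeu-like class it was not called (-0.70, -0.91 to -0.50), but within the clusters it was called lower in each, -1.02 (-1.43 to -0.61), -1.88 (-2.31 to -1.46) and -1.02 (-1.35 to -0.68). In these clusters 3 of 9 genes were called lower, Itga4, Itgb1 and Itgax, where 21.9%, 20.9% and 16.2% of all genes were. Itgb1 was at -1.64, -1.52 and -1.21 there. Over all kept cells of the libraries Itga4 was at 158.4 CPM in Ctrl and 69.5 CPM in cKO, and Itgb1 at 120.3 and 53.2 CPM. Such whole-library values also follow the mix of cells. HSC/MPP-like cells were 4.74% of kept cells in Ctrl and 2.41% in cKO, ProMon-like 10.3% and 6.61%, and ProB-like 4.06% and 0.0595%. MEP-like cells went the other way (4.64% and 5.94%). The part of RNA from other cells in the calls of Itga4 and Itgb1 was not tested.

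Itgax was called lower in mNeu-like cells (14.9 against 4.33 CPM, -1.79, -2.29 to -1.30), and at -2.08, -3.02 and -2.08 within the clusters, from 15, 59 and 30 UMIs in Ctrl and 5, 12 and 38 in cKO. In the Retnlg cluster it passed 20 UMIs only through Ctrl, and in the Mmp8 cluster neither library did so alone. With at least 20 UMIs Itgax could be tested in 1 class more, ProMon-like cells, where it was at 3.69 and 3.48 CPM (-0.08, -0.81 to 0.63). Of the 9 genes 2 were thus called in mNeu-like cells, both lower, beside 24.3% of all genes.

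The other CD18 genes stayed within 2-fold in all 4 neutrophil stages. Itgb2 was at -0.02 (-0.07 to 0.03) in mNeu-like and 0.16 (0.06 to 0.27) in ProNeu-like cells, and above the all-gene median in 7 of 8 classes. Itgam was at -0.70 (-0.81 to -0.60) for ProNeu-like, -0.41 for PreNeu-like, -0.23 for imNeu-like and -0.37 for mNeu-like cells, on either side of medians of -0.32 to -0.55. Itgal lay between -0.48 and -0.24 in these 4 stages and Itgb2l between -0.23 and -0.09. Within the clusters Itgb2l was at -0.16 in the Mmp8 cluster but 0.55 (0.40 to 0.69) and 0.56 (0.08 to 1.08) in the other 2, so the class value of -0.23 had the opposite sign to that of 2 of its 3 clusters. Cd44 was lower in cKO in 7 of 8 classes, from -0.58 in ProNeu-like cells to 0.06 in Basophil/mast-like cells, and past 2-fold in none. It lay above the all-gene median in 5 of the 8 classes. With size factors by the median of ratios it was above 0 in 5 of 8. In ProNeu-like cells none of 8 members tested was called, beside 6.58% of all genes, and none of 8 in PreNeu-like cells, beside 7.29%, and 1 of 8 in imNeu-like cells, beside 13.7%.

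**Figure D4:**
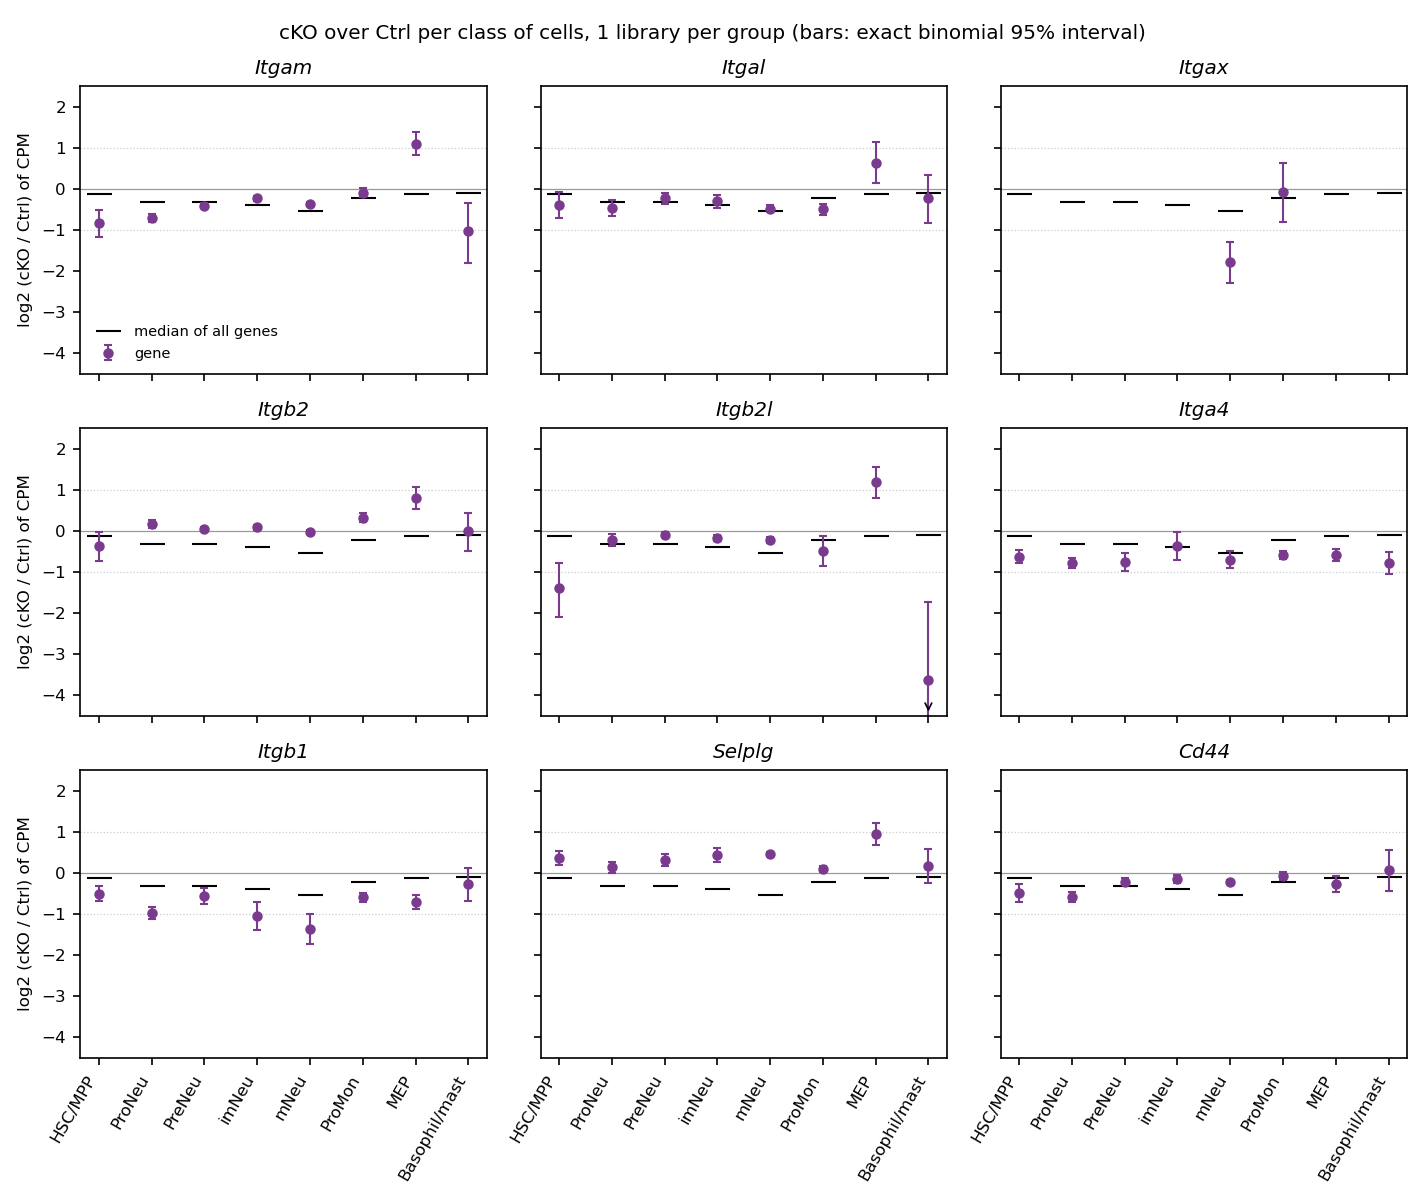
Log2 ratio of CPM, cKO over Ctrl, of each of the 9 genes in the 8 classes with at least 50 cells per library (names without their ending -like), with exact binomial 95% intervals as bars and the median of all genes in that class as a short black line. Selplg lies above 0 and above the median in each class, Itgb1 below both in each class, and Itgam and Itgb2l stand apart in MEP-like and Basophil/mast-like cells; classes where a gene had under 20 UMIs have no point, and the arrow marks an interval that runs off the axis.

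The remaining calls lay outside the neutrophil lineage and concerned Itgam and Itgb2l. Itgb2l was called lower in HSC/MPP-like cells (144 UMIs and 25.0 CPM in Ctrl, 24 UMIs and 9.44 CPM in cKO, -1.40), the only call among 8 members tested, beside 4.87% of all genes (3.59% lower). Its thinned shares were under that of B-like Ctrl cells. Unthinned, 21.2% of Ctrl and 12.4% of cKO HSC/MPP-like cells had an Itgb2l UMI, against 8.93% of the shallower B-like Ctrl cells. Whether this call is a difference in expression of these cells was not tested. In Basophil/mast-like cells Itgam (76.8 against 37.5 CPM, -1.03) and Itgb2l (46.8 against 3.75 CPM, with 2 UMIs in cKO, -3.64, -6.71 to -1.74) were called lower, 2 of 8, beside 8.79% of all genes (7.17% lower). The Itgam call was absent under 7 of 13 alternatives, 2 of which had no such class to test. On thinned cells the Itgam shares of this class were 7.18% of 209 Ctrl and 8.0% (2.2 to 19.2%) of 50 cKO cells. For Itgb2l they were 1.91% and 4.0% (0.5 to 13.7%). The cKO cells were too few for these shares to give a direction. Unthinned, 31.5% of Ctrl and 18.2% of cKO cells had an Itgam UMI, and 14.8% and 3.64% an Itgb2l UMI. The thinned Itgb2l shares are under the 4.95% of B-like Ctrl cells. In MEP-like cells Itgam (31.6 against 67.8 CPM, 1.10) and Itgb2l (18.9 against 42.6 CPM, 1.18) were called higher, 2 of 8, beside 6.86% (2.45% higher), with thinned shares of 5.28% and 24.2% for Itgam and 3.43% and 17.4% for Itgb2l. None of 9 was called in ProMon-like cells, beside 6.12%.

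Neutrophil marker RNA moved with each of these calls. The summed level of 28 imNeu and mNeu markers went from 6209 CPM in Ctrl to 3237 in cKO in HSC/MPP-like cells, from 12520 to 4046 in Basophil/mast-like cells and from 4873 to 11580 in MEP-like cells, and all 28 had UMIs in these classes in both libraries. S100a8 and S100a9, the most abundant neutrophil RNAs, made up 1.10% and 0.694%, 2.45% and 0.828%, and 0.963% and 2.72% of UMIs there. For each 1000 UMIs of S100a8 and S100a9 there were 2.26, 1.91 and 1.96 Itgb2l UMIs in these 3 classes of Ctrl, against 1.65 to 2.00 in the PreNeu-like to mNeu-like cells of Ctrl. In cKO they were 1.36, 0.453 and 1.57, against 1.12 to 1.57. For Itgam the same classes had 6.08, 3.13 and 3.28 in Ctrl, against 1.62 to 3.37 in those neutrophil stages. In cKO they had 5.38, 4.53 and 2.49 Itgam UMIs, against 1.11 to 2.08. In MEP-like cells of cKO the higher neutrophil RNA came from 1 cluster of shallow cells (339 cells, median 1131 UMIs), in which S100a8 and S100a9 were 15.9% of UMIs against 3.89% in its 234 Ctrl cells. Without that cluster the ratios of Itgam and Itgb2l in MEP-like cells were -0.62 and -0.16, that of Selplg was 0.02, and that of Itgal turned from 0.64 to -1.04, past 2-fold. The part of neutrophil RNA in these calls was otherwise not tested.

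The genes whose levels most resembled those of each member over the 16 points are given as a description of these libraries, since points share library, depth and class. They were chosen among 5374 genes by the Pearson r of log2(CPM + 10). Itgb2l ran closest with Adpgk (0.990), Cd177 (0.983) and S100a9 (0.983), of which Adpgk and Cd177 are among the markers used to name imNeu-like cells. Itgam ran with Slc31a2 (0.987), Vsir and Ncf1, a subunit of the phagocyte oxidase, and Itgb2 with Plaur (0.985), the urokinase receptor, Aldh3b1 and Pfn1. Itgal ran with Iqgap1 (0.992), Ptprc (CD45) and Rap1b, a small GTPase that opens integrins. Itga4 ran with Usp9x (0.980), Nop53 and Mga, and Itgb1 with Rad23b (0.992), Syncrip and Ep400. Selplg ran with Tpd52 (0.977), H2-D1 and Tpm4, Cd44 with Tmcc1 (0.978), Akna and Nadk, and the sparse Itgax with Nlrp3 (0.945), Jaml and Slc15a3.

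A list of 60 other genes of integrin and selectin adhesion was read beside the members. In mNeu-like cells 39 could be tested, with a median log2 ratio of -0.50 beside -0.55 for all genes, and 2 were called higher and 14 lower, where 1.16% of all genes were called higher and 23.2% lower. The genes of inside-out activation, which open integrins from the cytoplasm, had no call among 13 tested in any of the 8 classes, where 4.87 to 24.3% of all genes were called. Fermt3 (kindlin-3), which binds beta chain tails, was at 248.6 CPM in Ctrl and 191.6 CPM in cKO mNeu-like cells (-0.38). In ProNeu-like cells Fermt3 was at 237.5 and 235.6 CPM.

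Beside the 23.2% of all genes called lower in mNeu-like cells, 4 of 5 other alpha chains tested were, Itga2b (5.74 to 1.02 CPM, -2.49), Itga8 (-2.28), Itga6 (-1.89) and Itga5 (-1.71). Both beta chains tested were lower, Itgb7 (12.9 to 2.52 CPM, -2.36), which pairs with Itga4 in the gut-homing integrin, and Itgb3 (48.3 to 19.7 CPM, -1.29), which pairs with Itga2b on platelets. Itgb7 was close to level in ProMon-like cells, where it is abundant (135.5 and 128.4 CPM, -0.08), and Itga2b in HSC/MPP-like cells (48.0 and 54.7 CPM, 0.19). Of the enzymes that build selectin ligands St3gal6 (-1.23) and Fut4 (-1.01) were lower and Fut7 (17.7 and 12.03 CPM, -0.55) was not called.

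Among ligands Thbs1 (49.97 to 1.42 CPM, -5.14), Vcam1 (-2.61), Fn1 (-1.92), Icam1 (-1.34) and Icam2 (-1.01) were lower in mNeu-like cells of cKO, as was the hyaluronan synthase Has2 (-1.31). Spp1 (osteopontin) was higher (12 and 109 UMIs, 1.72 to 8.57 CPM, 2.31), as was Selp (P-selectin, the main partner of PSGL-1; 34 and 144 UMIs, 4.88 to 11.3 CPM, 1.21). Spp1 reached 20 UMIs only through cKO. The called genes other than Thbs1, Itgb3 and St3gal6 stood under 20 CPM in both libraries.

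**Figure D5:**
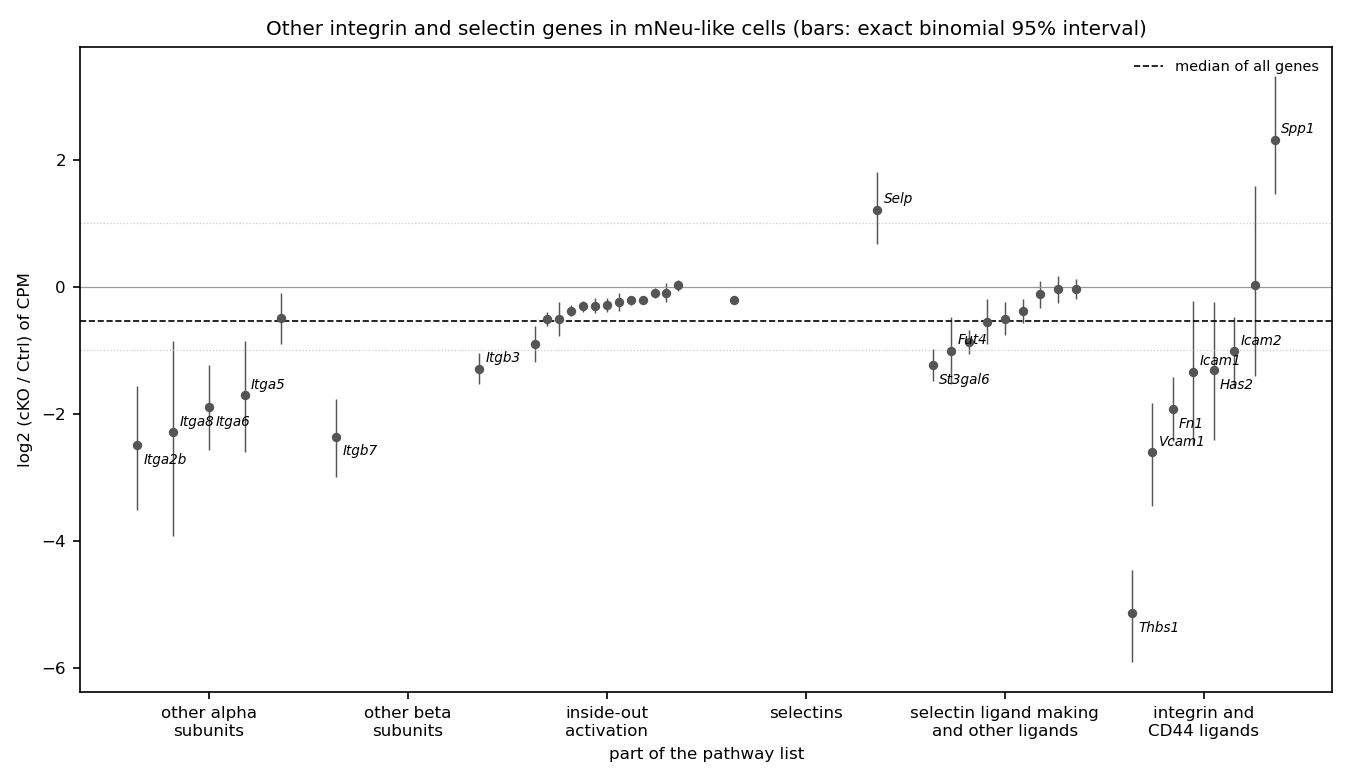
Log2 ratio of CPM, cKO over Ctrl, in mNeu-like cells for the 39 other integrin and selectin genes with at least 20 UMIs, grouped by role, with exact binomial 95% intervals as bars and the median of all genes as a dashed line; genes past 2-fold (dotted lines) are named. The 13 genes of inside-out activation lie between -0.90 and 0.02, and the calls are among other subunits, selectin ligand enzymes and ligands.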

How the data were processed

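Droplet-based 3′ RNA sequencing (BMKMANU DG1000) was available for 1 Ctrl and 1 cKO library of mouse bone marrow. The deposited values are UMI counts, whole numbers for each gene in each barcode, without normalization. They come from Cell Ranger 5.0.0 run on mm10 (GRCm38) per the labels, and barcodes that the study's own limits would remove are still among them. The members, the marker lists, the pathway list and the rules were chosen with earlier results of these data known, and several markers come from the study's own tables of these libraries. The 9 members were kept out of the clustering because they are what is compared.

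Barcodes were kept with 200 to 9000 genes and no more than 30% of mitochondrial UMIs. No doublet caller was run and no cells were removed as doublets, although the study did remove some. The libraries were integrated in Seurat 5.3.0 (R 4.3.3) with reciprocal PCA over 30 dimensions, 16 principal components and a resolution of 0.8, with 591 genes (the 9 members, the 60 pathway genes, and immunoglobulin, haemoglobin, ribosomal, mitochondrial and sex-linked genes) barred from the variable genes. Each cluster was given the class with the most markers among its 10 leading genes, with at least 3 among 50, a rule chosen after the data were seen. Mixed clusters were replaced by their sub-clusters, and 2 clusters led by mitochondrial and nuclear RNA stayed unnamed.

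UMIs were summed per class and library and divided by the total of all UMIs of the class (CPM). Sums carry exact Poisson and ratios exact binomial 95% intervals, shares of cells Clopper-Pearson intervals. These cover counting error only, since reads and cells of 1 library are not replicates. No p-value was computed. A 2-fold difference among genes with at least 20 UMIs was called, and the share of all genes called the same way stands beside the counts. Genes at 0 UMIs have a floor of 3 counts. Total counts of 71527701 and 64393950 UMIs set the precision. The genes named are the 9 members, for each the 3 genes with the highest correlation of log2(CPM + 10) among genes of at least 50 CPM in 1 point, and the pathway genes Fermt3, Itga2b, Itgb7 and those called in mNeu-like cells (1 further item of the rule is not reported here); some other values of pathway genes were chosen after they were seen. Alternatives were other scalings, filters, resolutions, no integration, classes from each cell's own markers, and weights per cell or cluster. The calculation of ratios was tested on simulated data. Calculations used Python 3.11.15 with numpy 2.4.6, scipy 1.17.1 and pandas 2.3.3.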

Additional observations from a re-analysis of the deposited data

Results flagged for a closer look

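Itgam and Itgb2l differed between libraries in opposite directions in different classes of cells, and these differences between classes were not tested. On the log2 scale, cKO over Ctrl, Itgam was at 1.10 in MEP-like cells and at -1.03 in Basophil/mast-like cells. Itgb2l was at 1.18 in MEP-like cells, -1.40 in HSC/MPP-like cells and -3.64 in Basophil/mast-like cells. In each case the summed neutrophil markers moved the same way as the ratio.

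The unnamed cluster led by plasma cell and mitochondrial RNA (220 Ctrl and 300 cKO cells), which enters no comparison of classes, also had more of the CD18-type beta chains in cKO. Its log2 ratio was 1.19 for Itgb2 (81 and 210 UMIs) and 1.204 for Itgb2l (39 and 102 UMIs), while Itga4 was at -0.98 (113 and 65 UMIs) and Itgb1 at -1.27 (83 and 39 UMIs). Of all genes tested there 4.86% were past 2-fold higher and 12.8% lower. The summed neutrophil markers of this cluster were at 20150 CPM in Ctrl and 54230 CPM in cKO, and their part in these ratios was not tested.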

How the results depend on the processing

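With 1 library per group, what limits these results is the lack of replicates, and at low counts the number of UMIs. No paired analysis was possible because each group holds a single library. The 8 calls between libraries became 4 at a clustering resolution of 0.5 (7 classes), 5 without integration and 3 with cells classed by their own markers (6 classes), and lay between 6 and 10 under the other alternatives. The 10 stage calls lay between 8 and 12. Under 10 alternatives and 3 more chosen after seeing the data, 689 of 834 ratios of single members moved by less than their counting interval, 141 moved by more and 4 reversed a call, and 50 changed sign. Called ratios turned in MEP-like cells, where Itgam was -0.75 without integration and -0.62 without the shallow cluster, and Itgb2l -0.29 and -0.16. Itgal in MEP-like cells, 0.64 and not called, was -1.04 without that cluster and -1.22 with cells classed by their own markers. The Itgb1 call in imNeu-like cells was absent under 6 of 13 alternatives (-0.61 by the median of ratios, -0.81 as per-cell proportions, -0.84 without integration, -0.95 by own markers, -0.97 without S100a8 and S100a9 and -0.99 with at most 10% mitochondrial UMIs), that in mNeu-like cells under 1 (-0.74, median of ratios), and those of Itgam in Basophil/mast-like cells under 7, Itgam in MEP-like cells under 4 and Itgb2l in MEP-like cells under 5. With size factors by the median of ratios Selplg was called higher in mNeu-like and MEP-like cells. Itgb1 was below 0 in every class under all 13 alternatives, and Itga4 under all but the median of ratios. Itgax in mNeu-like cells was called lower under each of them.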
